A study of Rattus norvegicus with 13 samples.

Results

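The histone-modifying enzymes described here were 87 of the 14790 genes in the table, taken by gene symbol alone. They were the symbols made of Kdm, Kmt, Setd, Setdb, Prdm, Hdac, Sirt, Kat, Prmt, Ehmt, Suv39h, Nsd or Smyd and a number, some with a letter after it, together with *Dot1l*, *Ep300*, *Crebbp* and *Carm1*. By enzyme family 44 of them were counted as writers, whose families add a group to histones, and 33 as erasers, whose families remove it. Some act little or not at all on histones, such as *Kmt2e*, *Setd3*, *Setd6*, *Hdac10* and the mitochondrial *Sirt3*, *Sirt4* and *Sirt5*, and *Prdm2* was kept with its family. The writers comprised 28 lysine methyltransferases, 9 acetyltransferases and 7 arginine methyltransferases, and the erasers comprised 16 lysine demethylases, 10 histone deacetylases and 7 sirtuins. Another 10 genes belonged to the PRDM family, zinc finger proteins with a domain related to that of the lysine methyltransferases, of which few have a known enzyme activity. All 87 passed the minimum mean of 1, and the lowest mean over the rats was 7.46, for *Prdm8*.

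Rat mammary epithelial cells were profiled by RNA-seq at 6 weeks, which lies in the window of susceptibility (WOS), when the gland is most prone to carcinogen-induced cancer, and at 10 weeks, outside WOS. All rats were female Wistar-Furth, a strain susceptible to mammary cancer, with no treatment named, and each library came from 1 rat, 6 of them at 6 weeks and 7 at 10 weeks. Abdominal and inguinal glands were digested with collagenase, and ductal fragments retained on a 40 µm nylon filter were taken for RNA. The material is enriched for epithelium but not pure, with cells of the stroma and the immune system left in it, so every value is an average over cell types.

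Methylation of H3K4 and H3K36 is found at active promoters, enhancers and transcribed gene bodies. Methylation of H3K9 and trimethylation of H4K20 are found in silent chromatin. Acetylation of histone tails goes with active chromatin, and its level is set by acetyltransferases against deacetylases and sirtuins. In the mammary gland, enzymes of this kind act with hormone receptors and lineage factors as the ducts grow and mature, and several, such as *Kmt2c* and *Kmt2d*, are often mutated in breast cancer.

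Expression is given in normalized counts, taken from the values to be read counts per gene scaled for each library and rounded, since the scaling is not described in the sources used here. Their total per rat lay between 13261906 and 15659533 at 6 weeks (median 13749795.5) and between 13766735 and 15402814 at 10 weeks (median 14574426). In 7 of the 13 rats some whole numbers from 1 to 30 never occurred, so in these libraries a low value may stand for fewer reads than it shows. Tests between the ages used limma with values as log2(normalized count + 1), adjusted after Benjamini-Hochberg over all 14790 genes, and a gene with an adjusted p under 0.05 is called DE. A log2 fold change above 0 means higher expression at 6 weeks, and on this scale the change of genes with low counts is understated.

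Epithelial markers were expressed in every rat. All 12 luminal markers were in the table and none was at 0 in any rat, with a summed level between 45590 and 70771 at 6 weeks (median 65719) and between 64834 and 86984 at 10 weeks (median 77775). The most abundant was *Cdh1*, which was DE and lower at 6 weeks, as was *Epcam*, and the other 10 did not pass the threshold. The 8 basal markers in the table, of 9 listed, summed to between 19012 and 30009 at 6 weeks (median 27401) and between 26868 and 36958 at 10 weeks (median 29807), with *Myh11* the most abundant and *Cnn1* DE and lower at 6 weeks. The markers that define the labelled cells were thus present at both ages.

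Other cell types were also seen in the libraries. Of 6 fibroblast markers found, 4 were DE and higher at 6 weeks. The sum of the 6 was between 105536 and 221154 at 6 weeks (median 184810.5) against 18804 to 54671 at 10 weeks (median 48873), without overlap. The collagen genes *Col3a1*, the most abundant, and *Col1a1* made up most of this sum. *Pdgfra* (log2 fold change 0.13, limma adjusted p = 0.78) and *Dcn* (0.57, limma adjusted p = 0.197) did not pass. Of 16 proliferation markers 15 were DE and higher at 6 weeks, with a sum between 5719 and 10590 (median 8400) against 3041 to 4827 (median 3301), also without overlap. *Pcna*, the most abundant of them, was the one that did not pass, and *Birc5*, *Tpx2* and *Rrm2* were at 0 in at least 1 rat. Among 7 mast cell markers 6 were DE and higher at 6 weeks, whereas *Kit*, the most abundant and also a gene of luminal progenitor cells, was DE and lower. The sum of these 7 was between 1858 and 2906 at 6 weeks (median 2443.5) and between 1523 and 3780 at 10 weeks (median 2901), and *Ms4a2*, *Tpsab1*, *Tpsb2* and *Hdc* were at 0 in at least 1 rat.

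For further cell types the sums of the ages overlapped. Adipocyte markers summed to between 4808 and 7536 at 6 weeks (median 5246.5) and between 3035 and 6205 at 10 weeks (median 4621), with *Adipoq* and *Plin1*, each at 0 in at least 1 rat, DE and higher at 6 weeks among 6 genes and *Lpl* the most abundant. Endothelial markers, led by *Vwf*, summed to between 4968 and 8834 (median 6869.5) and between 4574 and 7357 (median 5273), and *Cldn5* was the DE gene among 5. Macrophage markers, led by *Lyz2*, summed to between 655 and 1459 (median 1011) and between 674 and 1913 (median 947), with 0 of 6 DE in limma, 1 at an unadjusted p under 0.05 and 3 of 6 with an estimate below 0. The 3 skeletal muscle markers, led by *Acta1*, summed to at most 73 in any rat, and 0 of 3 were DE in limma, with 1 at an unadjusted p under 0.05. In bulk samples such as these, fewer cells of a type and less RNA per cell cannot be told apart. The part of cell composition and of proliferation in the differences of the histone-modifying enzymes was not tested.

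The libraries also differed within the ages. Around the age means, the first principal component accounted for 28.3% of the variation and set 5 rats (75 and 80 at 6 weeks, 78, 81 and 83 at 10 weeks) apart from the other 8. No label names this split. Fits within each set of rats and with the component as a term are given beside the main fit. The component and the sets come from these same values and reduce their spread by construction. These fits therefore cannot test the part of the split in the results. Of the 87 members, 14 had these 5 rats as their 5 highest and 4 had them as their 5 lowest, and 0 of the DE members did.

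Of the 87 members, 9 were DE, or 10.3%, against 16.1% of all genes tested. The direction was uneven, with 8 members lower at 6 weeks (9.2% against 7.39% of all genes) and 1 member higher at 6 weeks (1.15% against 8.71%). In 4 members every rat at 6 weeks lay below every rat at 10 weeks (4.6% against 2.78% of all genes), and in 0 members every rat at 6 weeks lay above every rat at 10 weeks (against 3.29%). The members had a median log2 fold change of -0.10, where all genes had 0.028. Of the 87 estimates 57 were below 0, against 7026 of 14790 over all genes. At an unadjusted p under 0.05 there were 24 members lower and 2 higher at 6 weeks, against 2186 lower and 2481 higher of all genes. The share of members that were DE was thus below that of all genes, but with sample quality weights it was above it, at 41.4% against 38.2%, with 29 members lower and 7 higher.

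These counts moved with library size scaling and with single rats. Median-ratio scaling gave 9 members lower and 1 higher at 6 weeks, and upper quartile scaling gave 8 lower and 1 higher. With library size scaling 2 members were DE and lower at 6 weeks (*Kmt2c* and *Kmt2e*) and 1 was higher (*Kdm4a*), so 66.7% of the DE members were lower in place of 88.9%, while the median of all genes moved to 0.074. When rats were left out singly, the number of DE members lower at 6 weeks was 2 without rat 70, 3 without rat 71, 1 without rat 84, 3 without rat 86, 3 without rat 72, 2 without rat 74, 3 without rat 78, 4 without rat 83, 2 without rat 87 and 12 without rat 81. The number of DE members higher at 6 weeks was 0 without rats 70, 71, 75, 84, 74, 78 or 87 and 2 without rat 85. The share of all genes that were DE moved too, and was 9.54% without rat 70, 10.1% without rat 84 and 18.1% without rat 81, in place of 16.1%. Of the 9 DE members *Kmt2e* alone was DE in all 13 of these fits.

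**Figure D1:**
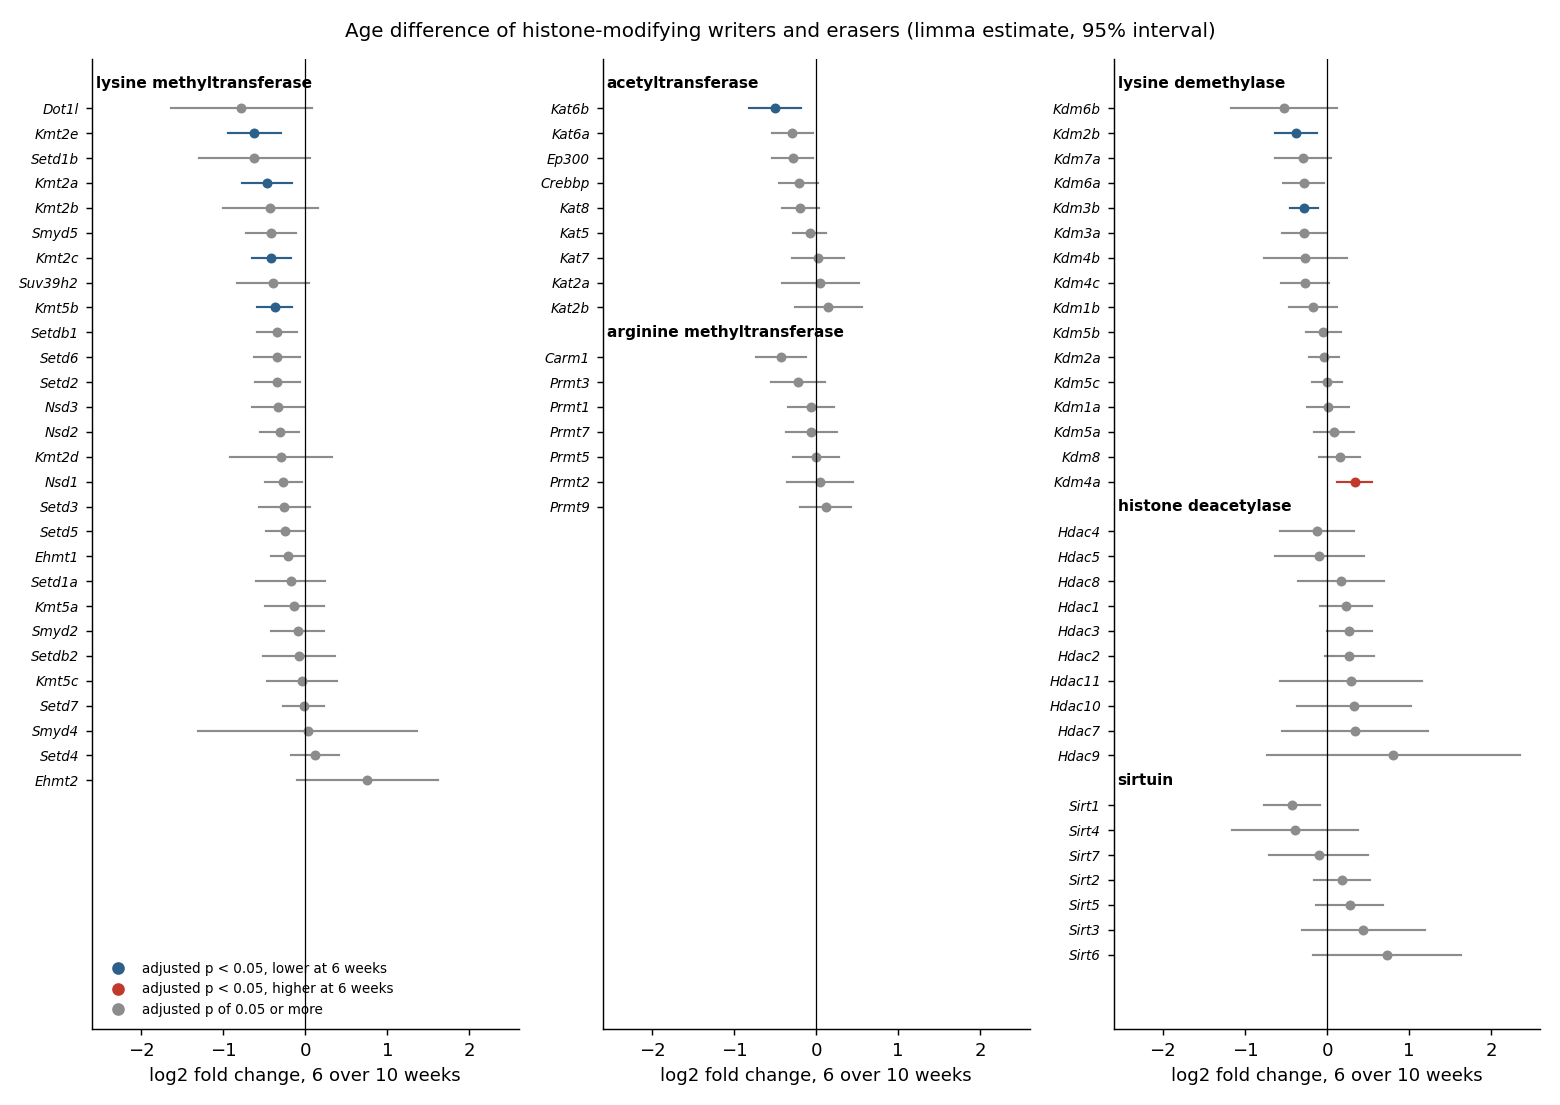
Age difference of the 44 writers and 33 erasers by role, with the limma estimate of the log2 fold change (6 over 10 weeks, points) and its 95% interval (bars). Blue points are the 7 DE writers and erasers lower at 6 weeks, the red point is *Kdm4a*, and of the 28 lysine methyltransferases 25 have an estimate below 0.

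Of the 28 lysine methyltransferases 4 were DE (14.3%, against 16.1% of all genes), all lower at 6 weeks, and 6 more had an adjusted p between 0.05 and 0.10, again all lower. At -0.30 their median log2 fold change was below the 0.028 of all genes, and 25 of 28 estimates were below 0. The median remained below 0 under each scaling, between -0.32 and -0.26. The median of these 28 genes was also below 0 in each of the 2 sets of rats, at -0.35 in the 8 and -0.19 in the 5.

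*Kmt2e* (ENSRNOG00000021614) encodes MLL5, a divergent family member with little or no histone methyltransferase activity of its own. It had 1755 to 3019 normalized counts at 6 weeks (median 2625) and 3157 to 4643 at 10 weeks (median 3606). The ages did not overlap, with rat 70 the lowest at 6 weeks and rat 74 the highest at 10 weeks. Its log2 fold change was -0.62 (standard error 0.15, limma adjusted p = 0.0153, 6 of 6 rats under the median of 10 weeks). Without any single rat it ran from -0.68 to -0.53, and the adjusted p from 0.0128 to 0.0395.

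*Kmt2c* (ENSRNOG00000061080) encodes MLL3, an H3K4 monomethyltransferase of enhancers. Its normalized counts were 653 to 955 at 6 weeks (median 864) and 985 to 1306 at 10 weeks (median 1114). The ages did not overlap, and the gap between the highest rat at 6 weeks (rat 75) and the lowest at 10 weeks (rat 78) was small beside the spread within either age. On the log2 scale the change was -0.41 (standard error 0.11, limma adjusted p = 0.0262, 6 of 6 rats below the 10-week median). It was DE in 9 of 13 fits that each left out 1 rat, and not without rat 70 (adjusted p = 0.0583), rat 84 (0.0583), rat 74 (0.0528) or rat 87 (0.0569). Over the 13 fits the adjusted p ran from 0.023 to 0.0583 and the log2 fold change from -0.45 to -0.34.

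*Kmt2a* (ENSRNOG00000015133), which encodes MLL1 of the COMPASS-like H3K4 methyltransferases, had 3169 to 5535 normalized counts at 6 weeks (median 4684) and 5137 to 7109 at 10 weeks (median 6512). The ages overlapped, since rats 85 and 81, at 5137 and 5166, were the lowest at 10 weeks and lay below the highest rats at 6 weeks. *Kmt2a* changed by -0.46 on the log2 scale (standard error 0.14, limma adjusted p = 0.0411, 6 of 6 rats below the 10-week median). It was DE in 4 of 13 fits without single rats, those without rats 75, 80, 81 and 85, with an adjusted p from 0.0292 to 0.0891 over the 13. With library size scaling the adjusted p was 0.0715.

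The H3K4 writers *Setd1b*, *Kmt2d*, *Kmt2b* and *Setd1a* varied more between rats within the ages than *Kmt2a* and *Kmt2c*. *Setd1b*, which trimethylates H3K4 in a COMPASS complex, had 102 to 250 normalized counts at 6 weeks and 107 to 372 at 10 weeks, and rats 75 and 80 and rats 78, 81 and 83 were the highest of their ages. *Kmt2d*, which encodes the enhancer methyltransferase MLL4, ranged from 3313 to 7079 and from 2909 to 8384 with the same rats highest. *Kmt2b*, which encodes MLL2, also had these 5 rats as its highest. Neither *Setd1b* (log2 fold change -0.62), *Kmt2b* (-0.42) nor *Kmt2d* (-0.29) passed the threshold, with limma adjusted p of 0.197, 0.295 and 0.51. *Setd1b* was DE with the residual component as a term. *Setd1a* and *Setd7* completed the H3K4 writers, with log2 fold changes of -0.18 and -0.019.

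*Kmt5b* (ENSRNOG00000016790) di- and trimethylates H4K20, whose trimethyl form is a mark of silent chromatin. It had 1489 to 1860 normalized counts at 6 weeks (median 1734) and 1919 to 2618 at 10 weeks (median 2270). The highest rat at 6 weeks (rat 71) was below the lowest at 10 weeks (rat 81), and the change was -0.37 on the log2 scale (standard error 0.098, limma adjusted p = 0.0231). It was DE in 11 of 13 fits without single rats and not without rat 70 (adjusted p = 0.0576) or rat 84 (adjusted p = 0.0503), with 0.0139 as the lowest of the 13. With library size scaling the adjusted p was 0.0538. The H4K20 monomethyltransferase *Kmt5a* and the close relative *Kmt5c* had log2 fold changes of -0.13 and -0.04 and were not DE.

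**Figure D2:**
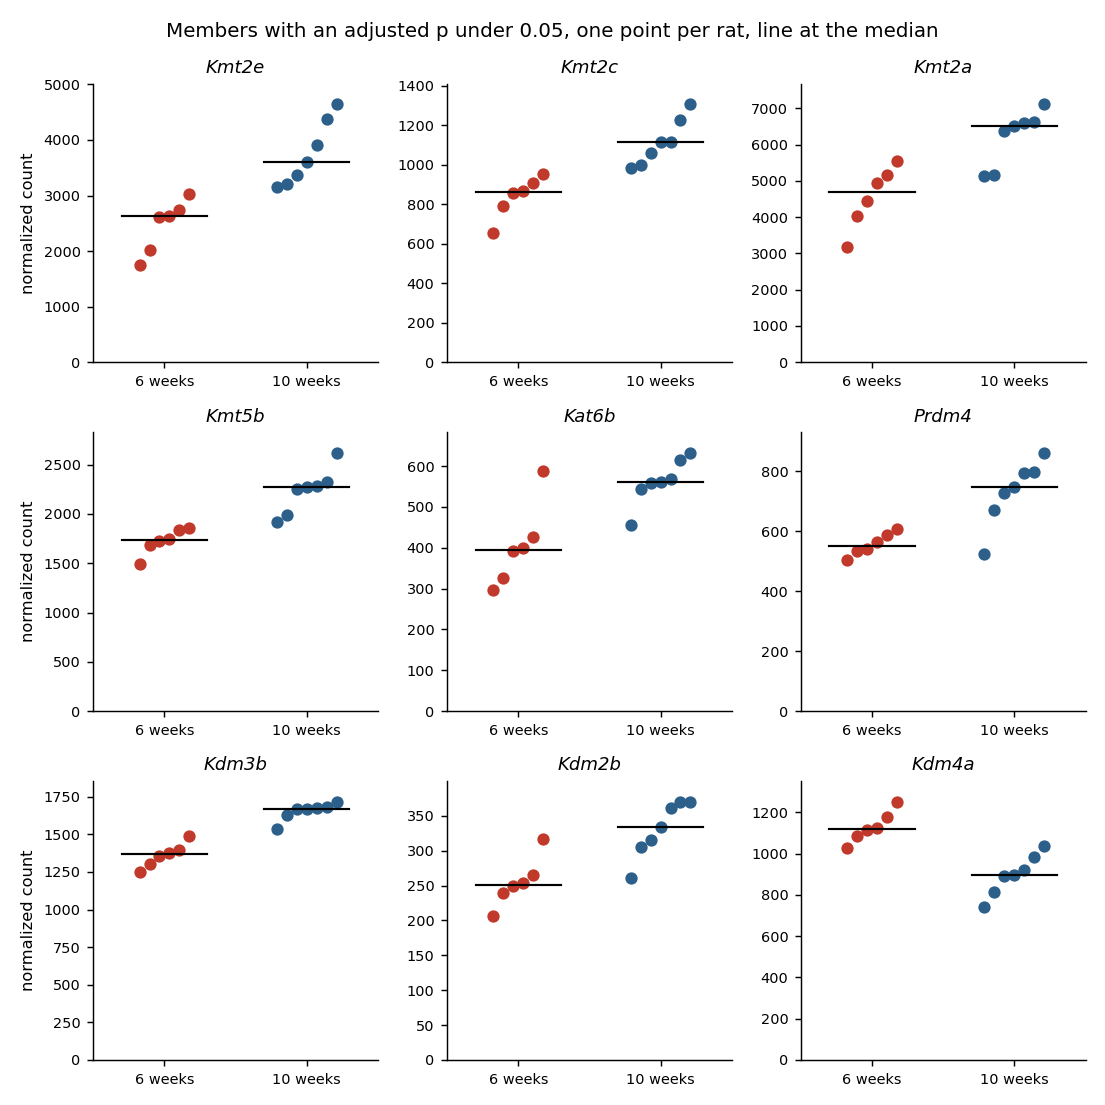
Normalized counts of the 9 DE members in each rat (points, red at 6 weeks and blue at 10 weeks, axes from 0), with the median of each age as a line. In *Kmt2e*, *Kmt2c*, *Kmt5b* and *Kdm3b* all points at 6 weeks lie below all points at 10 weeks, and in *Kdm4a* 5 of the 6 lie above all of them.

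Just outside the threshold were 6 lysine methyltransferases. *Setdb1*, which trimethylates H3K9 and is recruited by zinc finger proteins, had 505 to 697 normalized counts at 6 weeks (median 641) and 674 to 990 at 10 weeks (median 775), with a log2 fold change of -0.34 and a limma adjusted p = 0.0525. In 5 of 6 rats at 6 weeks it was below all rats at 10 weeks, and it was DE in 6 of 10 alternatives on all rats, median-ratio scaling among them (adjusted p from 0.0114 to 0.103). The 3 H3K36 methyltransferases *Setd2* (-0.34, adjusted p = 0.0918), *Nsd2* (-0.31, 0.0667) and *Nsd1* (-0.27, 0.0951) were in the same range. *Setd2*, which follows elongating RNA polymerase II, had 3763 to 5406 normalized counts at 6 weeks and 4719 to 7620 at 10 weeks, *Nsd2* had 1271 to 1633 and 1500 to 2286, and *Nsd1* had 2271 to 2965 and 2695 to 3740. All of these ranges overlapped, though in each of the 3 genes 6 of 6 rats at 6 weeks had less than the 10-week median. *Nsd3*, the other H3K36 writer, had -0.33 with an adjusted p of 0.141.

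*Smyd5*, a SET and MYND domain protein, had 131 to 224 normalized counts at 6 weeks and 177 to 256 at 10 weeks (log2 fold change -0.42, limma adjusted p = 0.0632). *Setd6*, which methylates RelA, had 23 to 38 and 33 to 45 (-0.34, adjusted p = 0.0926). In both genes the ages overlapped, with 5 of 6 and 6 of 6 rats at 6 weeks below the 10-week median. *Smyd5* was DE without rat 75, rat 80 or rat 85, with adjusted p from 0.0236 to 0.135 over the fits without single rats, and *Setd6* was DE in 0 of these 13 fits in limma, with an unadjusted p under 0.05 over all rats.

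The lowest and the highest estimates among the lysine methyltransferases belonged to genes that did not pass. *Dot1l*, the H3K79 methyltransferase, had 1805 to 5336 normalized counts at 6 weeks (median 2438) and 2244 to 10636 at 10 weeks (median 4612). At 6 weeks rats 75 and 80, at 5336 and 5266, stood above the other 4, which reached 2439 at most, and at 10 weeks rats 78, 81 and 83, from 7516 to 10636, stood above the other 4, which reached 4612. Its log2 fold change was -0.78 (standard error 0.40, limma adjusted p = 0.198). Within the 8 and the 5 rats it was -0.59 and -0.75, and with the residual component as a term *Dot1l* was DE (adjusted p = 0.0062, in a range up to 0.23 over 10 alternatives on all rats).

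*Ehmt2*, which encodes the H3K9 mono- and dimethyltransferase G9a, had 209 to 706 normalized counts at 6 weeks (median 465) and 125 to 542 at 10 weeks (median 190). Each of the 6 rats at 6 weeks exceeded the 10-week median, but rats 78, 81 and 83 lay within the 6-week range. The log2 fold change was 0.76 (standard error 0.40, limma adjusted p = 0.211). It was 1.31 in the 8 rats (DE, limma adjusted p = 0.0361) and 0.091 in the 5. Since the sets were split by these same values, the call in the 8 rats is no independent support. *Ehmt2* was also DE with sample quality weights (adjusted p = 0.0222, in a range up to 0.222 over 10 alternatives on all rats). Its partner enzyme *Ehmt1*, which encodes GLP, had 585 to 773 and 654 to 849, with -0.21 and an adjusted p of 0.158. The remaining lysine methyltransferases were *Suv39h2* (-0.39) and *Setdb2* (-0.071), which trimethylate H3K9, and *Setd3*, *Setd4*, *Setd5*, *Smyd2* and *Smyd4*, with log2 fold changes between -0.26 (*Setd3*) and 0.12 (*Setd4*), 0 of them DE in limma and *Setd5* alone at an unadjusted p under 0.05. *Smyd4* was at 0 in rat 75, and *Setd3* may share reads with a *Setd3*-like gene of the table, so its value is uncertain.

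**Figure D3:**
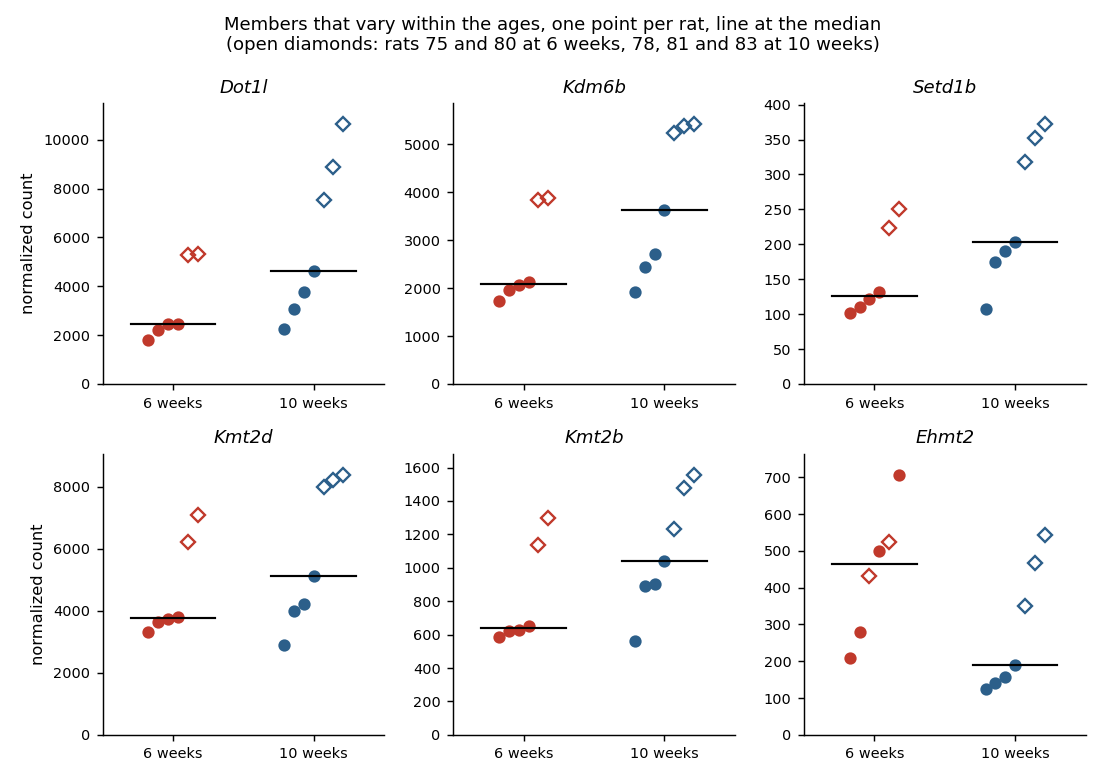
Normalized counts in each rat of 6 members chosen, after their values were seen, because they vary within the ages (red at 6 weeks, blue at 10 weeks, axes from 0, line at the median). Open diamonds are rats 75 and 80 at 6 weeks and rats 78, 81 and 83 at 10 weeks, which are the highest of their ages in *Dot1l*, *Kdm6b*, *Setd1b*, *Kmt2d* and *Kmt2b*, and *Ehmt2* is highest in rat 70.

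Acetyltransferases had 1 DE member of 9 (11.1%, against 16.1% of all genes). *Kat6b* (ENSRNOG00000012850), which encodes the MYST family H3 acetyltransferase MORF, had 297 to 587 normalized counts at 6 weeks (median 395.5) and 457 to 632 at 10 weeks (median 561). Rat 75 alone among the 6-week rats reached the 10-week range, and the other 5 had less than any rat at 10 weeks. This gave a log2 fold change of -0.50 (standard error 0.15, limma adjusted p = 0.0369). It was DE without rat 75 (adjusted p = 0.0075), 81 or 85, and not DE in the other 10 of 13 fits, with an adjusted p of up to 0.0853, nor with library size scaling (adjusted p = 0.0508).

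The other acetyltransferases were not DE. *Kat6a*, the MOZ relative of *Kat6b*, had 2372 to 3510 normalized counts at 6 weeks and 3408 to 4365 at 10 weeks (log2 fold change -0.29, limma adjusted p = 0.103). The H3K27 acetyltransferases and coactivators p300 and CBP had -0.29 for *Ep300* (adjusted p = 0.114) and -0.21 for *Crebbp* (adjusted p = 0.207). *Kat8*, *Kat5*, *Kat7* and *Kat2a* lay between -0.19 and 0.05, and *Kat2b*, which encodes PCAF of the SAGA and ATAC complexes, had the highest estimate of the role, 0.15, with 187 to 307 normalized counts at 6 weeks and 162 to 341 at 10 weeks. The median of the 9 was -0.19, and 6 estimates were below 0.

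Of 7 arginine methyltransferases 0 were DE in limma, with 1 (*Carm1*) at an unadjusted p under 0.05. *Carm1*, a coactivator of nuclear receptors, had 310 to 462 normalized counts at 6 weeks (median 352.5) and 389 to 599 at 10 weeks (median 500). In 5 of 6 rats at 6 weeks it was below all rats at 10 weeks, and rat 80, at 462, stood apart. *Carm1* had a log2 fold change of -0.42 (standard error 0.14, limma adjusted p = 0.0581), and it was DE without rat 80 (-0.50, adjusted p = 0.0334) or rat 85, with adjusted p from 0.0334 to 0.108 over these fits. *Prmt9* had the highest estimate, 0.12, with 164 to 248 and 145 to 231 normalized counts. *Prmt1* and *Prmt5*, the main enzymes of asymmetric and symmetric arginine dimethylation, had log2 fold changes of -0.063 and near 0, and *Prmt2*, *Prmt3* and *Prmt7* were between -0.22 and 0.051.

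Lysine demethylases were the role with DE members in both directions, 2 lower and 1 higher at 6 weeks of 16. That is 18.8%, near the 16.1% of all genes. The median log2 fold change of the role was -0.22, and 12 of its 16 estimates were below 0. *Kdm4a* (ENSRNOG00000019956), a demethylase of trimethylated H3K9 and H3K36, had 1028 to 1251 normalized counts at 6 weeks (median 1118) and 739 to 1037 at 10 weeks (median 895). It was higher in 5 of 6 rats at 6 weeks than in all rats at 10 weeks, and rat 86, at 1028, lay below rat 83, at 1037. The difference was 0.34 on the log2 scale (standard error 0.099, limma adjusted p = 0.0367). It was DE in 6 of 13 fits without single rats and not without rats 70, 71, 75, 84, 74, 78 or 87, with an adjusted p from 0.0284 to 0.0775, and in 10 of 10 other alternatives on all rats. In the 8 rats alone it was not DE (0.30, adjusted p = 0.0717), and the 2 members higher there were *Ehmt2* and *Hdac11*.

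*Kdm3b* (ENSRNOG00000050200), an H3K9 mono- and dimethyl demethylase, had 1247 to 1492 normalized counts at 6 weeks (median 1366.5) and 1533 to 1716 at 10 weeks (median 1671). The ages did not overlap, and the spread within them was the lowest of the 87 members, with an SD of 0.071 on the log2 scale. *Kdm3b* had a log2 fold change of -0.28 (standard error 0.079, limma adjusted p = 0.0305). It was DE without rats 75, 80, 81, 83 or 85 and not in the other 8 of 13 fits, with an adjusted p of up to 0.0683, nor with library size scaling (adjusted p = 0.12).

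*Kdm2b* (ENSRNOG00000025702), an H3K36 demethylase that recruits a Polycomb complex to CpG islands, had 207 to 317 normalized counts at 6 weeks (median 251) and 261 to 370 at 10 weeks (median 334). The ages overlapped through rat 70, the highest at 6 weeks, and rat 81, the lowest at 10 weeks. Its change was -0.38 on the log2 scale (standard error 0.12, limma adjusted p = 0.0489, 6 of 6 rats below the 10-week median). It was DE without rat 70 (adjusted p = 0.0356) or rat 81 (adjusted p = 0.0225) and not in the other 11 of 13 fits, with an adjusted p of up to 0.0969, nor with library size scaling (adjusted p = 0.148) or a pseudocount of 10.

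*Kdm6b*, which encodes the inducible H3K27 demethylase JMJD3, had the lowest estimate of the role. Its normalized counts were 1728 to 3869 at 6 weeks (median 2087) and 1909 to 5415 at 10 weeks (median 3628), and the highest rats were 75 and 80 at 6 weeks and 78, 81 and 83 at 10 weeks, as for *Dot1l*. The log2 fold change of -0.53 (standard error 0.30, limma adjusted p = 0.245) did not pass. It was -0.41 in the 8 rats and -0.47 in the 5, and with the residual component as a term it was DE (adjusted p = 0.0184, in a range up to 0.298 over the alternatives on all rats). The X-linked H3K27 demethylase *Kdm6a* had -0.29 with an adjusted p of 0.113, and *Kdm7a*, *Kdm3a*, *Kdm4b* and *Kdm4c*, which act mainly on H3K9, lay between -0.29 and -0.27 and were not DE.

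The H3K4 demethylases had estimates near 0. *Kdm1a*, which encodes LSD1, had 2386 to 3050 normalized counts at 6 weeks and 1958 to 3026 at 10 weeks, with a log2 fold change of 0.011 (limma adjusted p = 0.957). *Kdm5b*, known in mammary luminal cells, had 2534 to 3342 and 2648 to 3478, with -0.044 (adjusted p = 0.792). In both genes the range of one age lay largely within that of the other. *Kdm5a*, *Kdm5c* and *Kdm1b* had 0.088, near 0 and -0.17, and the H3K36 demethylase *Kdm2a* and the Jumonji domain hydroxylase *Kdm8* had -0.04 and 0.15.

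Histone deacetylases had 0 DE members of 10 in limma, also at an unadjusted p under 0.05, although 8 of 10 estimates were above 0 and their median was 0.27, between 0.25 and 0.32 under the other scalings. The class I enzymes of the Sin3, NuRD, CoREST and NCoR complexes were *Hdac1* (708 to 1255 normalized counts at 6 weeks and 769 to 1091 at 10 weeks), *Hdac2* (598 to 991 and 522 to 822) and *Hdac3* (305 to 463 and 250 to 363). Their log2 fold changes were 0.23, 0.27 and 0.27, with limma adjusted p of 0.30, 0.202 and 0.162. *Hdac8*, the class I enzyme of cohesin, had 0.17. *Hdac1* may share reads with *Hdac1l*, a near copy in the table with at most 18 normalized counts in any rat, so its value is uncertain.

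Among the class II and IV deacetylases *Hdac9* had the highest and *Hdac4* the lowest estimate. *Hdac9*, of class IIa, had 14 to 50 normalized counts at 6 weeks (median 29.5) and 0 to 32 at 10 weeks (median 24), with 0 in rat 81. Its log2 fold change of 0.81 (standard error 0.72, limma adjusted p = 0.465) was 0.13 without rat 81 and -0.24 in the 8 rats, so it has no settled sign. *Hdac4*, also of class IIa, had 300 to 613 and 320 to 684, with -0.12 (adjusted p = 0.729). *Hdac5*, *Hdac7*, *Hdac10* and *Hdac11* lay between -0.093 and 0.34. *Hdac11* was 1.15 in the 8 rats, a set split off by these same values (DE, limma adjusted p = 0.0253). In the 5 it was -1.03, so its sign is not settled either. With sample quality weights *Hdac1*, *Hdac2* and *Hdac11* were DE and higher at 6 weeks. A gene listed as LOC108348065 and described as histone deacetylase 6, outside the rule and named after its values were seen, had 351 to 558 normalized counts at 6 weeks and 361 to 505 at 10 weeks, with 0.076.

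Sirtuins, the NAD-dependent deacetylases, had 0 DE members of 7 in limma and 1 at an unadjusted p under 0.05. That gene was *Sirt1*, a nuclear enzyme, with 968 to 1483 normalized counts at 6 weeks (median 1167.5) and 1127 to 2090 at 10 weeks (median 1636). None of the 6-week rats reached the 10-week median, and rat 81 was the lowest at 10 weeks. *Sirt1* had a log2 fold change of -0.42 (standard error 0.16, limma adjusted p = 0.0828), and *Sirt1* was DE without rat 81 (adjusted p = 0.0304, in a range up to 0.176 over the 13 fits). *Sirt6*, a nuclear H3 deacetylase, had 35 to 125 and 20 to 112 normalized counts, with 0.73 (standard error 0.42, adjusted p = 0.249) and 5 of 6 rats above the 10-week median. *Sirt2*, *Sirt3*, *Sirt4*, *Sirt5* and *Sirt7* lay between -0.39 and 0.44.

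The PRDM family had 1 DE member of 10 (10.0%, against 16.1% of all genes). *Prdm4* (ENSRNOG00000004962) had 503 to 608 normalized counts at 6 weeks (median 552.5) and 525 to 861 at 10 weeks (median 748). The ages overlapped through rat 81, at 525, and the other 6 rats at 10 weeks had more than any rat at 6 weeks. *Prdm4* had a log2 fold change of -0.38 (standard error 0.12, limma adjusted p = 0.0426). It was DE in 1 of 13 fits without single rats, the one without rat 81 (adjusted p = 0.0068), and not in the 12 without rats 70, 71, 75, 80, 84, 86, 72, 74, 78, 83, 85 or 87, with an adjusted p of up to 0.0863, nor with library size scaling (adjusted p = 0.114).

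*Prdm2*, a PR domain protein with H3K9 methyltransferase activity, had -0.37 (adjusted p = 0.153), and *Prdm1*, *Prdm6*, *Prdm8*, *Prdm10*, *Prdm11*, *Prdm15* and *Prdm16* lay between -0.17 and 0.56. The median of the 10 was 0.022.

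The DE share of writers was 11.4% and that of erasers 9.09%, both below the 16.1% of all genes. Of the 44 writers 5 were DE and lower at 6 weeks and 0 were DE and higher in limma, with 17 lower and 0 higher at an unadjusted p under 0.05, 36 estimates below 0 and a median log2 fold change of -0.24. Of 33 erasers 2 were DE and lower and 1 was DE and higher, with 5 lower and 1 higher at an unadjusted p under 0.05, 17 estimates below 0 and a median of -0.00016, which was 0.047 with library size scaling. Of all 14790 genes 2186 were lower and 2481 higher at that unadjusted p, and 7026 estimates were below 0. The eraser median pools roles that differ. It was -0.22 over the 16 lysine demethylases, with 12 estimates below 0. Over the 10 histone deacetylases it was 0.27, with 2 below 0, and over the 7 sirtuins 0.18, with 3 below 0. The difference between writers and erasers was not tested.

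For H3K4 the 7 writers had a median of -0.41, 2 of them DE and lower (28.6%, against 7.39% of all genes lower and 16.1% DE), and all 7 estimates were below 0, whereas the 5 erasers had a median of -0.00016 and 0 DE members in limma, also at an unadjusted p under 0.05. The mean of log2(normalized count + 1) over the 7 writers was 9.58 to 10.29 in single rats at 6 weeks (median 9.77) and 9.70 to 10.51 at 10 weeks (median 10.24). Over the 5 erasers it was 10.73 to 10.98 at 6 weeks (median 10.85) and 10.73 to 11.09 at 10 weeks (median 10.84). Both pairs of ranges overlapped, and 5 of the 7 writers are among the genes that do not pass.

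For H3K9 writers and erasers both had medians below 0, at -0.21 over 5 writers and -0.27 over 6 erasers, with *Kdm3b* (lower at 6 weeks) and *Kdm4a* (higher) DE among the erasers and the writer *Setdb1* just outside the threshold. The H3K9 eraser mean was 9.52 to 9.73 in single rats at 6 weeks (median 9.57) and 9.60 to 9.85 at 10 weeks (median 9.78), and that of the writers was 7.83 to 8.13 (median 8.09) and 7.82 to 8.43 (median 8.02). The 4 H3K36 writers had a median of -0.32, with 3 just outside the threshold. Of the H3K36 erasers *Kdm2b* was DE and *Kdm2a* was not, and *Kdm4a* and *Kdm4c*, counted under H3K9, act on H3K36 too.

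For acetylation the sides had medians of opposite sign, -0.19 over 9 writers and 0.27 over 17 erasers, under each of the 3 other scalings too. They were -0.18 and 0.20 in the 8 rats and -0.10 and 0.12 in the 5. The writer mean was 9.15 to 9.36 in single rats at 6 weeks (median 9.27) and 9.31 to 9.52 at 10 weeks (median 9.47). The eraser mean was 6.86 to 7.35 at 6 weeks (median 7.21) and 6.67 to 7.22 at 10 weeks (median 6.97). Both ranges overlapped between the ages, and *Kat6b* was the DE gene among the 26.

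Of 21 genes for histone-modifying enzymes under other names, such as *Ash1l* for an H3K36 methyltransferase, 4 were DE and lower at 6 weeks (19.0%, against 7.39% of all genes lower and 16.1% DE in either direction) and 0 were DE and higher in limma, with a median of -0.20. They were *Ncoa1* (983 to 1120 normalized counts at 6 weeks and 1318 to 1720 at 10 weeks, log2 fold change -0.58, limma adjusted p = 0.0018), a coactivator of steroid receptors, *Riox2* (-0.68), *Ash1l* (-0.52) and *Gtf3c4* (-0.42). *Ncoa1* did not overlap between the ages. Among 13 subunits of the COMPASS complexes that hold the H3K4 writers, *Hcfc2* (-0.38) and *Ncoa6* (-0.41) were DE and lower (15.4%), 0 were higher, and the median was 0.087.

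The table held 40 subunits of acetyltransferase complexes, with 5 DE and lower at 6 weeks (12.5%, against 7.39% of all genes) and 0 higher in limma (against 8.71%) and a median of -0.17. *Tada2b* of SAGA (-0.46), *Epc1* of NuA4 (-0.42) and *Msl1* of the complex of *Kat8* (-0.39) had the lowest estimates of these 5, followed by *Yeats2* (-0.38) and *Ing5* (-0.33). Of 36 subunits of deacetylase complexes 4 were DE and lower (11.1%) and 0 higher, with a median of -0.18. Both DE shares are below the 16.1% of all genes. *Rcor3* of CoREST (-0.57), *Ncor1*, the corepressor that activates *Hdac3* (-0.36), *Sin3a* (-0.31) and *Chd4* of NuRD (-0.29) were these 4, and in *Ncor1*, *Sin3a* and *Chd4* every rat at 6 weeks lay below every rat at 10 weeks. With library size scaling 3, 1, 2 and 1 genes of these 4 lists were DE and lower.

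Among 9 partners in heterochromatin 1 was DE and higher at 6 weeks (11.1%, near the 8.71% of all genes higher). It was *Uhrf1*, a reader of H3K9 methylation that brings DNA methylation to newly copied DNA, with 142 to 231 normalized counts at 6 weeks (median 168.5) and 23 to 141 at 10 weeks (median 27). The ages did not overlap, by a single count between the highest rat at 10 weeks and the lowest at 6 weeks, and *Uhrf1* had a log2 fold change of 2.19 (standard error 0.38, limma adjusted p = 0.0024). The median of the 9 was 0.076.

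The rule used names only, and other features of the members can be set beside it. A word on location in the table was missing for 14 members (16.1%, against 62.2% of all genes). Among genes with a word it was nucleus for 65.8% of the members, against 37.3% of all such genes, and nucleus with cytoplasm for 28.8%, against 30.8%. Promoter sequences of RefSeq (build GRCr8), 300 bases around the start of the gene, were at hand for 72 of the 87 members and for 7 of the 9 DE members. Their median share of G and C was 63.2% over the 72 members, 63.0% over the 7 and 60.7% over 10104 genes of the table.

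Short motifs were searched on both strands in the promoter listed first for each gene. GGGCGG, the GC box, was found in 48 of 72 members (66.7%) and in 3 of 7 DE members, against 61.7% of the 10104 genes of the table and 34.9% of 27457 genes in all. CCAAT was found in 34 members (47.2%) and 2 DE members, against 37.5% and 37.7%. CACGTG was found in 7 members (9.72%), against 9.06% and 6.65%, TGACGTCA in 2 members (2.78%), against 3.08% and 1.91%, and the NRF1 site (GCGC and TGCGC with any letter between) in 8 members (11.1%), against 9.57% and 4.71%, and these 3 were found in 0 of the 7 DE members. A match is a run of letters and does not show that a factor binds.

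The promoters of *Kmt2c* and *Kmt5b*, which were lower at 6 weeks without overlap, and of *Kdm4a*, the DE member that was higher, are printed below. They differ in sequence, but the 88.7% G and C of *Kmt2c* is also the highest share over all 27457 genes. Capitals mark the GC boxes and CCAAT boxes on either strand. That of *Kmt2c* (chr4:10354227-10354526, plus strand, the first of 5 listed) has 88.7% G and C and 14 GC boxes, that of *Kmt5b* (chr1:210429422-210429721, plus strand) has 56.3% with 1 GC box and 1 CCAAT box, and that of *Kdm4a* (chr5:137004863-137005162, minus strand) has 54.0% with 0 GC boxes and 1 CCAAT box.
Kmt2c: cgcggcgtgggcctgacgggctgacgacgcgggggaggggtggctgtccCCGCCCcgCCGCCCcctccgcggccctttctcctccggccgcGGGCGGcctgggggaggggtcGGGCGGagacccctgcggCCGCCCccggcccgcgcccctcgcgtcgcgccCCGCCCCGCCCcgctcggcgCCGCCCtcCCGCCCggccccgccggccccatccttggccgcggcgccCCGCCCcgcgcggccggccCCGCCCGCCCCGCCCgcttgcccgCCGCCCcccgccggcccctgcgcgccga
Kmt5b: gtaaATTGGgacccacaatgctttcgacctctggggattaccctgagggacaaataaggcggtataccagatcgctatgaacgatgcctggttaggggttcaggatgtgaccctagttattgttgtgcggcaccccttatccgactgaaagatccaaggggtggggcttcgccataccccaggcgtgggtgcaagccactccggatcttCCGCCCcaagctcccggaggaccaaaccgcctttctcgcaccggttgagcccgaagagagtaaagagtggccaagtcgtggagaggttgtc
Kdm4a: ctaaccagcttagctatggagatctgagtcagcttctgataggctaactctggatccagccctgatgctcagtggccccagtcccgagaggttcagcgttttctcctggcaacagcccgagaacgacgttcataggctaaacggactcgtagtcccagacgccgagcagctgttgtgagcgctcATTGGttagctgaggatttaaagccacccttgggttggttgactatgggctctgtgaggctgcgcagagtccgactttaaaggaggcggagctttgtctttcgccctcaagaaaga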

How the data were processed

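RNA-seq of mammary epithelial cells from 13 rats was read from a table of 14790 genes. The authors estimated counts with RSEM 1.2.22 (genome rn5 in the submitters' processing notes, annotation not given in the sources used here), and deposited values that look scaled per library and rounded, whose unit is taken as a score. How they were scaled is not described in the sources used here. Other columns, deposited by the authors from their EdgeR comparison, hold log2 fold changes and abundances, a likelihood ratio score, p-values and their -log10. None of these was used. A column of words on location, of unstated source, served for a count only.

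The limma 3.58.1 fit, made in R 4.3.3, had age as its one term, log2(normalized count + 1) as its values and a minimum mean of 1 per gene. All 14790 genes met this minimum, and 0 per-rat columns were left out. Two-sided p-values were corrected over all genes by Benjamini-Hochberg, with a threshold of 0.05. The fit was tested on simulated data, and no result of that test is given or used here. A test for raw counts was not used, since the values appear scaled. Counts, medians and figures were made in Python 3.11.15 with pandas 2.3.3, numpy 2.4.6 and matplotlib 3.10.9.

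The members and lists were chosen with earlier results of these data known. The genes named are the DE members, the highest and lowest estimate of each role among members with a mean of at least 10, members with an adjusted p from 0.05 to 0.10, DE partners, and the most abundant markers and those at 0. Others were named after their values were seen. The values of 1 member and of 1 list of markers are not reported here. Alternatives were 3 scalings, pseudocounts of 0.1 and 10, a minimum of 10 in every rat, no minimum, limma-trend, sample quality weights, each rat left out, each set of rats alone and the first residual component as a term. The sets of 8 and 5 rats were split at the largest gap of that component.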

Additional observations from a re-analysis of the deposited data

Results flagged for a closer look

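In each named member the highest and the lowest rat of an age were compared with the others of that age, over 52 groups of rats for 26 genes. Rat 80 at 6 weeks had 462 normalized counts of *Carm1*, where the other 5 rats had 310 to 355, and without it *Carm1* had a log2 fold change of -0.50 (limma adjusted p = 0.0334). Rat 70 at 6 weeks had 1271 normalized counts of *Nsd2*, where the other 5 had 1541 to 1633, and without it the log2 fold change was -0.26 (limma adjusted p = 0.149). Both values were picked out by a gap to the nearest rat that was wide beside the whole range of the age, which chance gives in about 1 in 20 groups, so 2 of 52 is no more than that share.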

How the results depend on the processing

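The 9 DE members comprised 8 lower and 1 higher at 6 weeks, among 1093 and 1288 of all genes. With library size scaling 2 members were lower, among 772 of all genes. With at least 10 in every rat (82 members tested) 2 were higher, among 1170 of all genes tested. With limma's sample quality weights 29 were lower and 7 higher, among 2638 and 3009 of all genes. When the first residual component entered the fit 19 members were lower, among 1651 genes. Since it was computed from the residuals, it reduces them by construction, and so does the split into sets, which follows it. In the 8 rats 13 members were lower and 2 higher, among 1466 and 2003 of all genes. The DE share there was 17.2% of members against 23.5% of all genes tested. In the 5 rats 0 members were lower, 0 were higher, and 0 of all genes were DE in either direction in limma. In these 5 rats 5 members and 1976 genes had an unadjusted p under 0.05. Without single rats the members lower numbered from 1 to 12 and those higher from 0 to 2, among 608 to 1219 and 803 to 1461 of all genes. Fewer rats enter these fits, and otherwise the cause was not tested.

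Of the 26 named members under 25 alternatives, 524 estimates kept their direction and side of the threshold, 81 no longer passed, 42 newly passed and 2 changed sign. Those were *Hdac9* with sample quality weights (-0.016) and in the 8 rats (-0.24). *Kmt2e* was DE in all alternatives but the 5 rats alone. *Kmt2c* and *Kdm4a* were DE in 10 of 10 alternatives on all rats, *Kmt5b*, *Kdm3b*, *Kmt2a*, *Kat6b* and *Prdm4* in 9, all but library size scaling, and *Kdm2b* in 8. The median of writers lay between -0.26 and -0.20 without single rats and that of erasers between -0.036 and 0.063. Precision at low values differs between rats, which limits *Prdm8*, *Smyd4*, *Sirt4*, *Prdm6*, *Hdac9* and *Hdac11* most.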
